A study of Mus musculus with 6 samples.

Results

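The genes described here are 10 immediate early and stress response genes, namely *Fos*, *Jun*, *Junb*, *Jund*, *Egr1*, *Ier2*, *Atf3*, *Klf4*, *Klf6* and *Dusp1*. Each was taken by its gene symbol from an RNA-seq table of 14647 genes, in which 8 of the 10 had a row. *Jund* and *Egr1* had none and were not analysed here. The list was chosen by earlier measured values of this same comparison, so the differences between genotypes for these 8 genes are given as a description and support nothing. RNA was sequenced from the region of the pharyngeal arches, dissected from mouse embryos at E9.5, 3 of them *Pax9*-/- (*Pax9*-null) and 3 wild type, all on a C57Bl/6J background. The null allele is constitutive, so every cell of a *Pax9*-null embryo carried it. The study's methods do not give the sex of the embryos. No embryo received a treatment. According to the study's methods, the embryos were collected in ice-cold buffer and the pharyngeal region was then cut free in an RNA preservative, whereas the sample labels describe sorted cells and a different library kit. The description in the methods was followed.

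Immediate early genes are transcribed within minutes of a stimulus such as a growth factor, serum, mechanical strain or tissue injury, without a need for new protein synthesis. MAP kinase signalling phosphorylates factors already bound at their promoters, including the ternary complex factors that act with serum response factor (SRF) and members of the CREB/ATF family, and the resulting mRNAs are short-lived. Many of the products are transcription factors, among them the Fos and Jun proteins that pair to form AP-1, and others such as *Dusp1* feed back on the kinases. The same genes are known to respond to the handling of tissue, and for that reason they are often read as a sign of how samples were collected.

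The libraries had effective sizes of 11509904 to 12692325 reads, and the 3 wild-type libraries were all larger than the 3 *Pax9*-null libraries. The unit throughout is log2 RPKM, in which reads are divided by gene length and library size, so levels can be set side by side between genes. *Pax9* itself, the gene removed, was at −0.55±0.11 log2 RPKM (mean±SD, *n*=3) in *Pax9*-null and 0.77±0.17 in wild-type libraries. This log2 difference of −1.32 was past the threshold (limma with Benjamini-Hochberg adjustment, adjusted *P*=0.0155), with 37 to 43 reads per library against 99 to 123. Wild-type replicate 3 stood apart, in that all 8 cardiomyocyte markers were lowest there and their summed RPKM was 75.7 against 1076 to 1431 in the other 5 libraries. Wild-type replicate 1 differed in other markers. Its endothelial sum was 106 RPKM against 58.8 to 74.3 elsewhere, with every endothelial marker but *Egfl7* highest there. Every neural tube marker but *Tubb3* was lowest in the same library. Erythroid markers summed to 2623 to 4860 RPKM in *Pax9*-null and 2377 to 2484 in wild-type libraries. Macrophage markers were almost absent, with 2 of 8 in the table and sums of 0.352 to 0.616 RPKM, and no hepatocyte or yolk sac marker was in the table.

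Upstream sequences were read to show what the measured genes share that the choice of list did not use. RefSeq promoters (GRCm38.p6) matched 7 of the 8 genes, and 4 of them are printed 5′ to 3′ as the 250 bases before the RefSeq start. Gene positions given further on are from GENCODE M21, whose starts can differ. The *Dusp1* stretch lies inside the GENCODE span of that gene, and the *Klf6* stretch overlaps the first bases of its span. *Fos* is at chr12:85473640-85473889 on the plus strand, *Jun* at chr4:95052223-95052472 on the minus strand, *Klf6* at chr13:5861239-5861488 on the plus strand and *Dusp1* at chr17:26508473-26508722 on the minus strand. Capitals mark matches on either strand to the TATA box letters TATAAA and to forms of the element bound by CREB/ATF and AP-1 factors. The forms searched were TGACG, the longer TGACNTCA and the full palindrome TGACGTCA, which overlap one another. *Fos* is shown because it held TATAAA, and the other 3 because they held TGACNTCA.
Fos: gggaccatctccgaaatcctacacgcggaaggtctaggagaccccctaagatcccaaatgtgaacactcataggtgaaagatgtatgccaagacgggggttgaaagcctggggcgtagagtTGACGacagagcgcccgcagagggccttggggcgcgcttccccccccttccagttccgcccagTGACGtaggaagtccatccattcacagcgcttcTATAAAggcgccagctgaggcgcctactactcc
Jun: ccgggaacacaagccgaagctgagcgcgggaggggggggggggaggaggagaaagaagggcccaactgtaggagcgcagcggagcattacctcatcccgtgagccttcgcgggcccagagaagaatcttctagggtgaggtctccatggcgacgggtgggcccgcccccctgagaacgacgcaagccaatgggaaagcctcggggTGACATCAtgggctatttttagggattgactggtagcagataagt
Klf6: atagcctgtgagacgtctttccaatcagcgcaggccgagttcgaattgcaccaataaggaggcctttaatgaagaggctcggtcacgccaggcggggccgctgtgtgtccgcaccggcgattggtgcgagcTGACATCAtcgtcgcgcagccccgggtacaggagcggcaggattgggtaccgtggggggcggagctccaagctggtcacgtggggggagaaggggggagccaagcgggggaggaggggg
Dusp1: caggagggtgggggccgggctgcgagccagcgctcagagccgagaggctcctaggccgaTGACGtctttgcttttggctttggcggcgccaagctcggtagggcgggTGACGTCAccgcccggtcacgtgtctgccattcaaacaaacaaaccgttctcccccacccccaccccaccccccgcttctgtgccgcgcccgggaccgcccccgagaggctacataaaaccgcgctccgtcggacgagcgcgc

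The element TGACNTCA was in 3 of the 7 stretches (*Jun*, *Klf6* and *Dusp1*) and in 7.49% of 32851 mouse promoters of the same length. Only the *Dusp1* stretch held the full palindrome TGACGTCA, found in 1.55% of promoters. The shorter TGACG was in 5 of 7 (*Fos*, *Junb*, *Atf3*, *Klf4* and *Dusp1*) and in 17.8% of promoters. Both TGACNTCA and TGACG were picked after these sequences had been read, so their counts are descriptive. The 7 stretches held 58.4 to 74.0% GC, against a median of 52.4% for all promoters. The part of base composition in these counts was not tested. TATAAA was found in *Fos* alone, against 12.4% of all promoters. No match to the SRF-binding CArG box, to TGANTCA or to the Egr element GCGTGGGCG lay in these windows, where 1.47%, 6.75% and 0.536% of promoters held them, and a match or its absence in so short a window is only a statement about letters.

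Short mRNA life is associated with AU-rich elements in the 3′ UTR, built on the pentamer ATTTA. On the GENCODE M21 models, *Dusp1* had 5.80 pentamers per kb of 3′ UTR, *Fos* 4.91, *Junb* 4.12, *Jun* 3.24, *Atf3* 2.53, *Klf6* 2.25 and *Klf4* 1.02, and *Ier2* had 0. The median of 12274 genes was 1.39 per kb, which 6 of the 8 exceeded. The longer form TATTTAT was in 5 of 8, compared with 30.4% of all genes. In the stretch of *Jun* with most pentamers, 2 lay apart from one another. Those of *Fos* and *Dusp1* are printed with their overlapping pentamers in capitals. Any 2 pentamers that share a base spell ATTTATTTA, so the same run in both genes follows from how the stretches were picked.
Fos: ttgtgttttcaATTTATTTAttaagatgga
Dusp1: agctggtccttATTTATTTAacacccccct

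The 8 genes covered a wide span of levels in the pharyngeal region. *Klf6* was highest, at a mean of 4.83 log2 RPKM over the 6 libraries, above 83.9% of genes in the table. *Ier2* (4.07), *Jun* (3.62), *Dusp1* (2.20) and *Atf3* (1.58) followed in that order, and each of these steps was in the same direction in 6 of 6 libraries. The ranges of *Ier2* and *Jun* overlapped, but those of the other neighbours down to *Klf4* did not. *Klf4* (0.01), *Junb* (−0.21) and *Fos* (−0.39) lay together at the bottom, above 17.1%, 14.9% and 13.1% of genes respectively. Their order did not hold beyond the spread, since *Klf4* exceeded *Junb* by 0.22±0.81 log2 RPKM (SD of the difference, 5 of 6 libraries) and *Junb* exceeded *Fos* by 0.18±0.91 (3 of 6). *Fos*, the best-known immediate early gene, was thus measured from only 12 to 29 reads per library, which limits what its values can show.

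**Figure D1:**
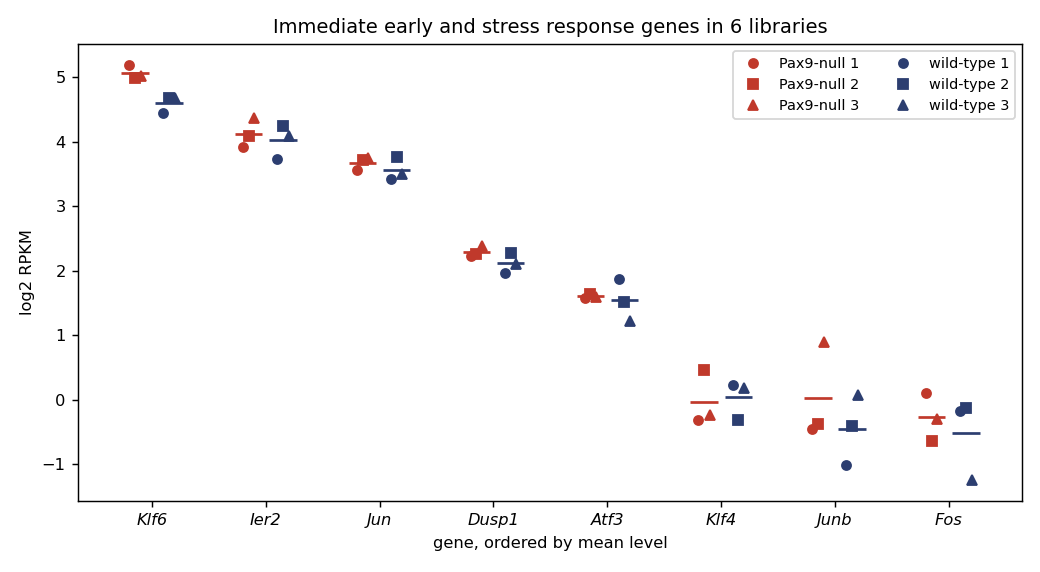
Levels of the 8 genes in log2 RPKM (vertical axis) for each library, with genes along the horizontal axis in order of mean level, points for the 3 *Pax9*-null and 3 wild-type libraries, and short lines for the mean of each genotype. The genotypes are separate in *Klf6*, overlap in the other 7 genes, and are most widely scattered in *Junb* and *Fos*.

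*Klf6*, a zinc finger transcription factor of the Krüppel-like family, was the one gene in which the genotypes did not overlap. It was at 5.19, 4.99 and 5.02 log2 RPKM in *Pax9*-null replicates 1, 2 and 3 and at 4.45, 4.67 and 4.68 in wild-type replicates 1, 2 and 3. The lowest *Pax9*-null library was 0.32 above the highest wild-type one. The log2 difference was 0.47 (SE 0.10, 95% interval 0.24 to 0.70), a 1.38-fold higher level, from 1545 to 1783 reads in *Pax9*-null and 1166 to 1355 in wild-type libraries. *Klf6* (ENSMUSG00000000078, chr13:5861482-5870394, plus strand, 5 exon blocks) was called in the limma fit of all tested genes (adjusted *P*=0.0395). Its adjusted *P* was 0.159 when *Pax9*-null replicate 1 was left out, 0.128 when replicate 3 was, and 0.128 when trends with gene length and GC content were removed from each library, which left a log2 difference of 0.26. Across the 17 alternatives tried it lay between 0.0245 and 0.23. In bulk tissue a different number of expressing cells and a different amount of RNA per cell cannot be told apart, and the part in this difference of the erythroid markers was not tested. Their summed RPKM, mostly globin, was higher in all 3 *Pax9*-null libraries, but only 2 of the 7 markers (*Hbb-bh1* and *Hbb-y*) were so singly.

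Among the AP-1 genes, *Jun* (ENSMUSG00000052684, chr4:95049034-95052222, minus strand) encodes the partner that can pair with itself or with Fos proteins. It was at 3.55, 3.71 and 3.74 log2 RPKM in the *Pax9*-null replicates and 3.43, 3.76 and 3.50 in the wild-type replicates, from 433 to 532 reads per library. The highest value of the 6 was that of wild-type replicate 2, so the genotypes overlapped. The log2 difference was 0.11 (SE 0.11, 95% interval −0.16 to 0.37), and it was 0.34 with length and GC trends removed (adjusted *P*=0.139).

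*Fos* (ENSMUSG00000021250, chr12:85473890-85477273, plus strand, 4 exon blocks), which encodes the partner that needs a Jun protein, was at 0.11, −0.63 and −0.29 in the *Pax9*-null replicates. In the wild-type replicates it was at −0.17, −0.13 and −1.24. The genotypes overlapped, and the lowest value was that of wild-type replicate 3, the library with few cardiomyocyte transcripts. The log2 difference of 0.24 (SE 0.36, 95% interval −0.59 to 1.08) became −0.12 without that library, and the part of the cardiomyocyte markers in this was not tested.

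*Junb* (ENSMUSG00000052837, chr8:84974484-84978718, minus strand) encodes a Jun protein that is a weaker activator than Jun itself. Its levels were −0.45, −0.37 and 0.90 log2 RPKM in the *Pax9*-null replicates and −1.01, −0.40 and 0.08 in the wild-type replicates. *Pax9*-null replicate 3 was the highest library and wild-type replicate 1 the lowest, with 50 and 14 reads at the ends of the range. The log2 difference of 0.47 (SE 0.43, 95% interval −0.52 to 1.47) was as large as that of *Klf6* but fell to 0.03 without *Pax9*-null replicate 3.

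*Atf3* (ENSMUSG00000026628, chr1:191170296-191218039, minus strand, 5 exon blocks) encodes a CREB/ATF family factor that is induced by many kinds of cell stress and can pair with Jun. It was at 1.58, 1.64 and 1.60 log2 RPKM in the *Pax9*-null replicates and 1.88, 1.52 and 1.23 in the wild-type replicates. The *Pax9*-null libraries lay close together, inside a wild-type range in which replicate 1 was highest and replicate 3 lowest. The log2 difference was 0.06 (SE 0.18, 95% interval −0.36 to 0.49), and it was −0.09 without wild-type replicate 3 and −0.04 with length and GC trends removed.

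*Ier2* (ENSMUSG00000053560, chr8:84661331-84662852, minus strand) is an intronless gene for a small nuclear protein. It was at 3.92, 4.09 and 4.36 log2 RPKM in the *Pax9*-null replicates and 3.73, 4.24 and 4.09 in the wild-type replicates. The libraries of both genotypes were interleaved, with *Pax9*-null replicate 3 highest and wild-type replicate 1 lowest. *Ier2* had a log2 difference of 0.10 (SE 0.16, 95% interval −0.27 to 0.48), which became −0.04 with wild-type replicate 1 left out.

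*Dusp1* (ENSMUSG00000024190, chr17:26505590-26562128, minus strand) encodes a phosphatase that inactivates p38, JNK and ERK kinases and so closes the loop on the signals that induce it. It was at 2.23, 2.26 and 2.39 log2 RPKM in the *Pax9*-null replicates and 1.96, 2.28 and 2.11 in the wild-type replicates, from 133 to 165 reads per library. Wild-type replicate 2 alone brought the genotypes into overlap, by 0.05. The log2 difference was 0.17 (SE 0.13, 95% interval −0.13 to 0.47), and it was 0.36 with length and GC trends removed (adjusted *P*=0.161). The reads fitted a gene length of 2697 bp rather than the 3311 bp of the GENCODE M21 model, so the level of *Dusp1* against other genes depends on the gene model.

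*Klf4* (ENSMUSG00000003032, chr4:55527143-55532466, minus strand), a Krüppel-like factor known for its part in pluripotency and in epithelial and endothelial cells, was the only gene of the 8 with a lower mean in *Pax9*-null embryos. It was at −0.31, 0.47 and −0.23 log2 RPKM in the *Pax9*-null replicates and 0.23, −0.30 and 0.18 in the wild-type replicates. *Pax9*-null replicates 1 and 2 were at opposite ends of the range, so the genotypes overlapped in full. Between genotypes the log2 difference was −0.06 (SE 0.28, 95% interval −0.71 to 0.58), and it was 0.08 without *Pax9*-null replicate 1 and 0.12 with length and GC trends removed.

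Across the 8 genes, 7 had a higher mean in *Pax9*-null embryos and the median log2 difference was 0.14, beside −0.0012 over the 13547 genes tested, of which 49.8% had a higher mean. *Klf6* was the 1 gene of 8 called (12.5%), where 26.7% of all tested genes were called, 14.7% as higher and 12.0% as lower in *Pax9*-null. That split depended on scaling, with 1990 genes higher and 1621 lower as deposited, 2170 and 1403 under median centring, and 1433 and 1742 under quantile normalization. Likewise *Klf6* was the 1 gene of 8 whose libraries did not overlap between genotypes, a state found in 41.9% of tested genes. The adjusted *P* of the other 7 genes was between 0.364 and 0.895 in the limma fit, and an adjusted *P* above the threshold does not show that their levels were equal. Over the 3 least expressed genes (*Klf4*, *Junb* and *Fos*) the 95% intervals reached from −0.71 to 1.47 on the log2 scale, so differences of more than 1.38-fold could have gone undetected there. The upper limits of *Ier2* (0.4776), *Atf3* (0.4882) and *Dusp1* (0.4745) were also just above the *Klf6* difference of 0.469. The summed RPKM of the 8 genes was 72.6 to 78.1 in *Pax9*-null and 55.9 to 68.1 in wild-type libraries, a sum in which *Klf6* has the largest share.

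**Figure D2:**
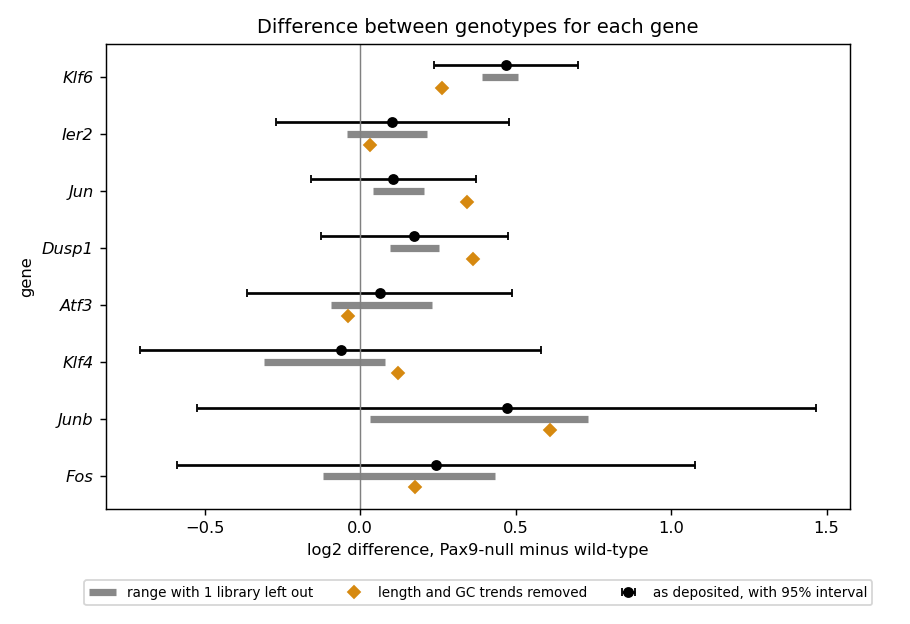
Log2 difference between genotypes (*Pax9*-null minus wild type, horizontal axis) for each of the 8 genes (vertical axis), with black points and bars for the fitted value and its 95% interval, grey bars for the range when each library was left out in turn, and diamonds for the value with length and GC trends removed. The interval of *Klf6* lies above 0 (0.24 to 0.70), and those of the other 7 genes include 0.

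Each library was then described across the genes. Measured from the mean of each gene over the 6 libraries, the 8 genes were on average 0.22 log2 units higher in *Pax9*-null replicate 3, 0.06 in replicate 2 and 0.02 in replicate 1. They were lower by 0.15 in wild-type replicate 1, 0.01 in replicate 2 and 0.13 in replicate 3. *Pax9*-null replicate 3 was above the gene's own mean in 7 of 8 genes and had the highest value in 3 (*Ier2*, *Junb* and *Dusp1*), whereas wild-type replicate 1 had the lowest value in 5 of 8. The libraries at the ends of this range were thus 1 of each genotype. The part of cell composition in these deviations was not tested, although endothelial and neural tube markers also set wild-type replicate 1 apart. *Junb* alone was 1.11 above its mean in *Pax9*-null replicate 3, the largest deviation in that library.

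**Figure D3:**
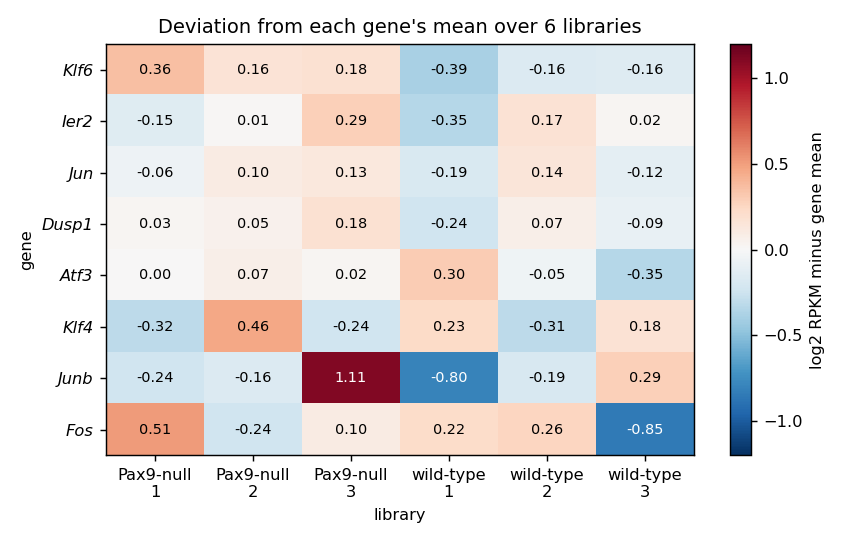
Deviation of each library (columns) from the mean of each gene over the 6 libraries (rows), in log2 RPKM, coloured by sign and size. *Pax9*-null replicate 3 is above the gene's mean in 7 of the 8 genes, and wild-type replicate 1 is the lowest library in 5.

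With the genotype means subtracted, *Ier2*, *Jun* and *Dusp1* followed one another most closely over the 6 libraries. Pearson's r was 0.95 for *Dusp1* and *Ier2*, 0.91 for *Dusp1* and *Jun*, 0.85 for *Ier2* and *Jun* and 0.82 for *Ier2* and *Junb*. These were the only 4 of 28 pairs above 0.8. The median over pairs was −0.01, with 13 pairs positive, and the lowest was −0.74 for *Klf6* and *Atf3*. For *Klf6*, the 1 gene called, r with the other genes lay between −0.74 and 0.40. These coefficients are descriptions over 6 libraries, which share their depth and tissue cut between genes. Centring on genotype means leaves fewer free values than libraries, and the spread of *Dusp1* was only 1.07 times that of read counting alone. Among 7980 other genes that averaged 5 RPKM or more, those whose variation within genotypes was most like the mean of the 8 were *Qtrt1* (r=0.99), *Ndufaf8* (0.99), *Gm13461* (0.99), *Ddx56* (0.99) and *Psmd9* (0.99). None of these 5 belonged to any gene list used here. With only 6 libraries and 7980 genes ranked, some unrelated genes can reach such values of r, so the 5 names show no link. The mean of the 8 was not scaled by gene, so *Junb* and *Fos*, with the widest spread, weighed most in it.

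Variation between embryos of 1 genotype was compared with that from counting reads alone. The SD within genotypes was 0.66 for *Junb* and 0.52 for *Fos*, higher than in 97.0% and 93.7% of tested genes, and 0.37 for *Klf4*. Counting alone would give 0.30, 0.32 and 0.24 for these genes, so their spread was 2.18, 1.63 and 1.53 times the counting value. *Klf6* (0.12, or 3.17 times) and *Ier2* (0.24, or 2.96 times) were furthest above their counting values. Such ratios depend on the number of reads, since the counting value of *Klf6* was only 0.038. Its SD was higher than in only 27.5% of tested genes, and that of *Ier2* than in 68.3%. *Dusp1* had an SD of 0.13, which was 1.07 times the counting value, so little of its spread was beyond what counting gives. The widest spread in the group was thus in the genes with the fewest reads.

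**Figure D4:**
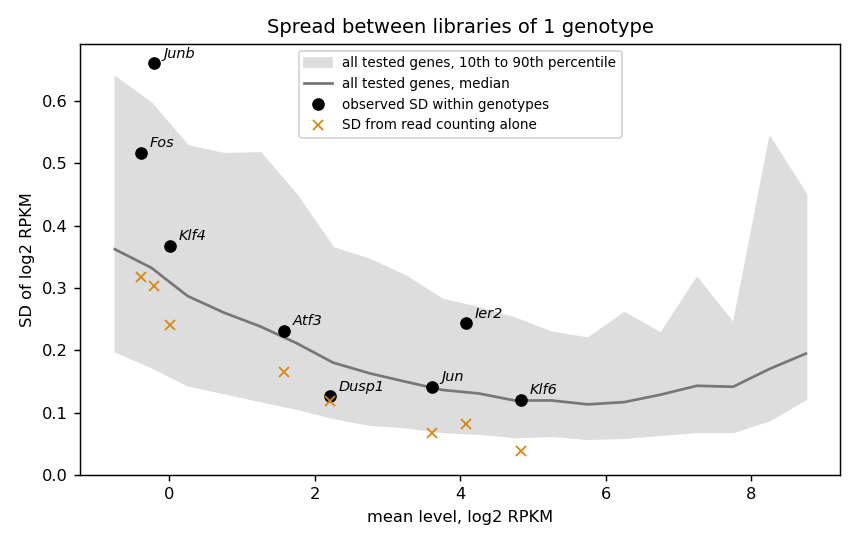
SD of log2 RPKM within genotypes (vertical axis) against mean level in log2 RPKM (horizontal axis), with black points for the 8 genes, crosses for the SD that read counting alone would give, and the line and grey band for the median and the 10th to 90th percentile of all tested genes. *Junb* (0.66) lies above the band, and *Dusp1* (0.13) lies on its counting value.

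On the GENCODE M21 models the 8 measured genes had a median exonic length of 2700 bp, against 4170 bp for all tested genes. Only 1 (*Klf6*) was longer than that median. The reads of *Klf6* fitted 4217 bp rather than its model's 4391 bp, and those of *Dusp1* 2697 bp rather than 3311 bp. Model lengths were used in removing the trends. Their median GC content was 54.3% against 49.3%, with *Klf6* (42.4%) the 1 gene below. *Jun* and *Ier2* were the 2 genes with a single exon block. Differences between genotypes in this table varied with both length and GC content, and for that reason each value is also given with those trends removed. The change was not in 1 direction, in that *Klf6* dropped from 0.47 to 0.26 while *Jun* and *Dusp1* went from 0.11 to 0.34 and from 0.17 to 0.36 on the log2 scale.

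Genes of 5 related lists were examined to place these genes within their pathway. Of 45 tested early response genes outside the group, 2 were higher (*Ier5* and *Mcl1*) and 2 lower (*Gadd45g* and *Per1*) in *Pax9*-null embryos, or 8.89%, with a median log2 difference of 0.06. *Ier5*, an early gene that acts on heat shock factor, was at 3.46±0.07 log2 RPKM in *Pax9*-null and 3.18±0.08 in wild type (*n*=3 each, log2 difference 0.28, SE 0.09, limma adjusted *P*=0.0832). *Mcl1*, a survival protein of the Bcl2 family, was at 6.33±0.03 and 6.12±0.05 (adjusted *P*=0.0938). *Gadd45g*, a DNA damage-inducible gene, was at 0.48±0.37 and 1.34±0.36 (adjusted *P*=0.0651), and *Per1*, a clock gene that also responds to glucocorticoid and cAMP signals, was at −0.40±0.18 and 0.32±0.11 (adjusted *P*=0.0561). These 4 calls thus went in both directions.

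Among relatives of the AP-1, ATF and Krüppel-like factors, 1 of 23 tested genes was called (4.35%). This was *Klf13*, lower in *Pax9*-null with a log2 difference of −0.49 (SE 0.17, limma adjusted *P*=0.0911), but its libraries overlapped between genotypes and the difference was −0.06 with length and GC trends removed. No gene of that list was called higher. Of 25 heat shock chaperone genes, 3 were higher and none lower (12.0%), whereas under quantile normalization 2 were higher and 3 lower. The log2 difference was 0.63 (SE 0.13, adjusted *P*=0.0352) for *Hspe1*, the mitochondrial co-chaperonin. It was 0.53 (SE 0.09, adjusted *P*=0.0281) for *Chordc1*, an Hsp90 co-chaperone, and 0.30 (SE 0.09, adjusted *P*=0.0667) for *Dnaja1*, an Hsp40 protein. With length and GC trends removed the log2 differences of these 3 genes were 0.09, 0.30 and 0.25 and none was called.

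Of 31 other stress response genes, 3 were higher (*Sdf2l1*, *Dnajb9* and *Xbp1*) and 1 lower (*Sesn2*), which is 12.9%. *Sdf2l1*, a protein of the endoplasmic reticulum, was at 5.67±0.04 against 5.26±0.20 log2 RPKM (adjusted *P*=0.0530), *Dnajb9*, a co-chaperone there, at 4.08±0.09 against 3.74±0.20 (adjusted *P*=0.0870) and *Xbp1*, a transcription factor of the unfolded protein response, at 5.74±0.20 against 5.40±0.13 (adjusted *P*=0.0948). *Sesn2*, a target of p53 and of the integrated stress response, was at 1.57±0.14 against 2.10±0.08 (adjusted *P*=0.0491). With length and GC trends removed none of these 4 was called, and the log2 difference of *Dnajb9* turned from 0.34 to −0.078, that of *Sdf2l1* went from 0.41 to 0.15 and that of *Sesn2* from −0.53 to −0.19. Of the 39 genes reported here from the MAP kinase and SRF pathways, which act upstream of the immediate early genes, 6 were lower (15.4%), and the median log2 difference was −0.11. *Dusp8*, a phosphatase of stress-activated kinases, was at −1.38±0.35 against −0.38±0.12 from 16 to 50 reads (adjusted *P*=0.0518), and the SRF coactivators *Mkl2* and *Mkl1* were at 1.46±0.30 against 2.29±0.30 (adjusted *P*=0.0482) and 0.43±0.38 against 1.09±0.13 (adjusted *P*=0.0819). No gene of these lists was called without *Pax9*-null replicate 1, and only 1, *Chordc1*, without *Pax9*-null replicate 3. None of the 15 genes named from these lists was called in all 6 fits that left out 1 library, and *Ier5* was the only one still called with length and GC trends removed. Each list's share of called genes lay below the 26.7% of the whole table.

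**Figure D5:**
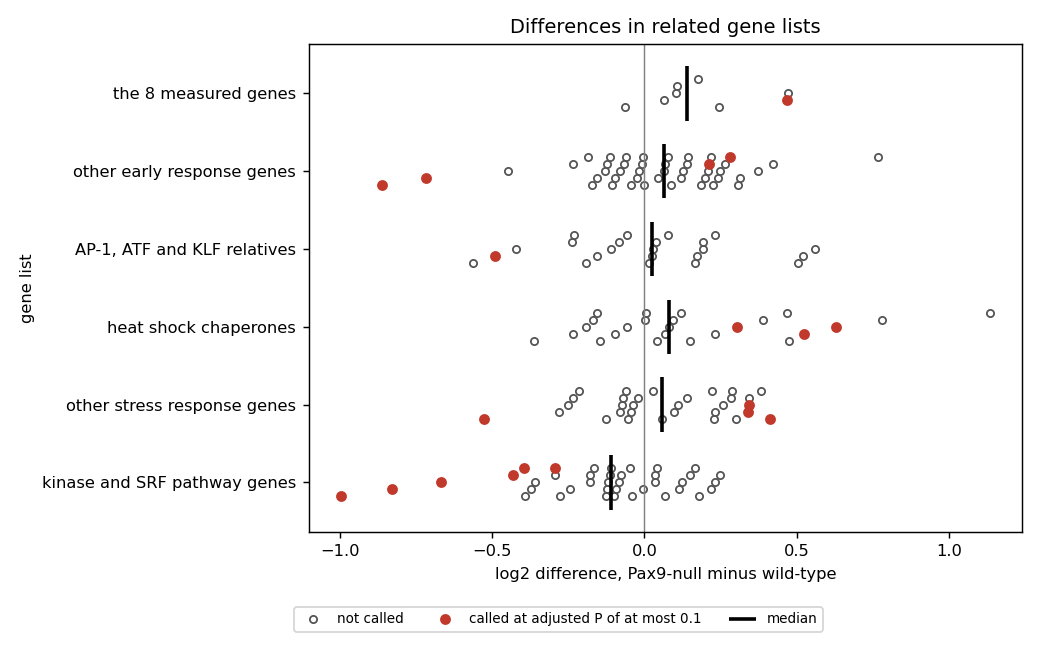
Log2 difference between genotypes (*Pax9*-null minus wild type, horizontal axis) for the 8 genes and the genes of 5 related lists (vertical axis), with 1 point for each gene, filled where called by limma at an adjusted *P* of at most 0.1, and a bar at each list's median. The medians lie between −0.11 for the kinase and SRF pathway genes and 0.14 for the 8 genes.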

How the data were processed

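Per the study's methods, with tool versions from the submitters' processing notes (the methods name a different STAR release), the authors trimmed reads (Trimmomatic 0.32), brought all libraries to a like size by sub-sampling, ran STAR 2.5.1a against GRCm38 and counted reads per Ensembl gene with the default settings of featureCounts (1.5.1), which ignore strand, so that antisense reads cannot be told apart. The deposited values are log2 RPKM, from −7.15 to 11.02, made by the authors with a prior count. That prior of 0.5 reads and the library sizes were worked out here from the values, and 82.7% of values were whole reads within 0.05 at the GENCODE M21 gene length. The read numbers given for a gene are these recovered values, and counting error was computed from them.

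Genotypes were compared by a two-sided limma fit (version 3.58.1, R 4.3.3, eBayes with trend) of the deposited log2 values. It covered the 13547 genes that averaged 0.5 RPKM or more, adjusted by Benjamini-Hochberg and called at an adjusted *P* of 0.1 or less. The standard errors and 95% intervals are limma's moderated ones. With 3 libraries against 3, no exact permutation *P* can be below 0.1. The libraries are from separate embryos, and the *P* values measure the spread between these 6. Length and GC trends were removed from each library with splines of 5 degrees of freedom as an alternative. The fit was tested on simulated reads that had no length or GC trends and no library that stood apart, so that test does not cover these features. Genes of related lists were named by rule, as up to 3 of the largest rises and 3 of the largest falls called in each list, and the 5 genes most like the 8 by Pearson's r. The members and all gene lists were chosen with earlier results of these data known. Marker lists gave summed RPKM: endothelium 58.8 to 106 (*Cdh5* and *Tie1* called lower), pharyngeal endoderm 40.1 to 64.5 (*Pax9* called lower), epithelium 191 to 282 (none called), neural crest 91.1 to 107 (*Twist1* called higher, *Sox10* lower) and neural tube 68.7 to 158 (none called). The endoderm sum was mostly *Sox2* (mean of 46.9 RPKM) and the neural tube sum mostly *Tubb3* (63.5 RPKM). The highest endothelial and lowest endoderm sums were in wild-type replicate 1, and the highest neural tube sum in wild-type replicate 3. No cardiomyocyte marker was called, and of the erythroid markers *Hbb-bh1* was called higher. From the lists, 1 kinase pathway gene and 1 erythroid marker are not reported here and were left out of their counts and sums.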

Additional observations from a re-analysis of the deposited data

How the results depend on the processing

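The call of *Klf6* was kept in 13 of 17 alternatives, and its log2 difference was above 0 in all 17. The number of the 8 genes called was 1, and it was 0 with length and GC trends removed, with and without a replicate block, and 0 to 1 with each library left out in turn. Among all tested genes 3611 were called, and 1335 at an adjusted *P* of 0.05 or less, 503 with length and GC trends removed, 1377 with a replicate block, 227 with both, and 175 to 3578 with 1 library left out. It was 301 and 175 with *Pax9*-null replicates 1 and 3 omitted, where *Klf6* was not called, and 1799 and 2141 with wild-type replicates 1 and 3 omitted. Correlations of same-numbered libraries were −0.02, −0.17 and 0.26, and those of differently numbered ones reached from −0.35 to 0.36. So few libraries cannot show whether replicate numbers pair the embryos. Under the block *Klf6* was still called (limma adjusted *P*=0.0902).

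Of the other early response genes 4 were called, with 0 at the threshold of 0.05, 2 without the variance trend, 1 with trends removed, 1 with the replicate block, 1 with both and 0 to 4 with 1 library left out. For the AP-1, ATF and Krüppel-like relatives the 1 call became 0 under each of these and under median centring and quantile normalization, and was 0 to 2 with 1 library left out. For the heat shock chaperones the 3 calls, all higher, became 5 under quantile normalization (2 higher and 3 lower) and 0 with trends removed, with and without the block, and were 0 to 4 with 1 library left out. The 4 other stress response genes became 1 at 0.05, 2 without the variance trend, 0 with trends removed, 1 with the block, 0 with both and 0 to 4 with 1 library left out. The 6 kinase and SRF genes became 2 at 0.05, 0 with trends removed, 1 with the block, 0 with both, 10 with library weights and 0 to 7 with 1 library left out. Of 265 alternative values of the 15 named list genes and *Pax9* together, 157 kept direction and call, 106 kept direction but lost the call, and 2 changed sign. Every alternative kept the call of *Pax9* (highest limma adjusted *P*=0.0933), so its values are among the 157. The 2 that changed sign were those of *Dnajb9* (−0.078) with trends removed, with and without the block. The cause was not tested. Pseudocounts of 0.1 and 1 RPKM and other filters kept every one of these counts within 1.5 times. Depth limits *Fos*, *Junb* and *Klf4*, with at most 50 reads in a library.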
